A study of Rattus norvegicus with 10 samples.

Results

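A set of 10 genes for apolipoproteins and proteins that carry, move or break down lipid were followed in the rat hypothalamus after water deprivation: Apod, Apoe, Apoc1, Clu, Abca1, Abcg1, Lrp1, Lpl, Ptgds and Ttr. Members were all probe sets of the array, control probe sets aside, that the platform annotation pairs with exactly 1 symbol equal to one of these names. The rule found 18 probe sets for the 10 genes, out of 31042 probe sets and 14217 genes with a symbol of their own. Another probe set that lists Ttr together with other genes was left out. Lipid is carried between cells of the brain in particles built around apolipoprotein E, which astrocytes secrete and which the membrane transporters ABCA1 and ABCG1 load with cholesterol. Receptors of the low-density lipoprotein family, such as LRP1, take the particles up. Apolipoprotein D and prostaglandin D synthase (Ptgds) are lipocalins, small secreted proteins that hold a fatty ligand in a barrel-shaped pocket, and both are known products of oligodendrocytes and of the meninges.

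The tissue was the hypothalamic paraventricular nucleus of male Sprague Dawley rats aged 10 to 12 weeks. One group of 5 samples came from rats dehydrated for 3 days and the other 5 from control rats, and no genetic alteration is named for either. RNA of 5 animals was pooled for each sample and read on a Rat Genome 230 2.0 array from Affymetrix, giving 10 arrays from 50 animals, and a pool hides the spread between its animals. The design text names the supraoptic nucleus where the sample labels name the paraventricular nucleus, and the sample labels were followed. Of 9 neuron markers on the array, Avp, Oxt, Crh, Trh, Sim1, Pdyn and Sst lay above the signal filter, while Otp and Pou3f2 lay between 0.4 and 18.8 on every array.

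Control replicate 5 stood apart from the other arrays. On the leading principal component (20.7% of the variance) it scored 37.2, where the others ran from -14.4 to 3.69. Its array weight was 0.385, where the others ran from 0.745 to 1.59. These weights were used only in the alternative fit with array weights, and all arrays counted equally in the main fit. In control replicate 5 the beta-actin control probe sets gave the lowest 3 prime over 5 prime log2 ratio, at 2.16. Between the groups that ratio was 2.84 ± 0.17 in dehydrated and 2.70 ± 0.33 in control pools (SD, n = 5 each, exact two-sided permutation p = 0.516). The Gapdh ratio was 1.58 ± 0.22 in dehydrated and 1.41 ± 0.21 in control pools (exact two-sided permutation p = 0.254). Summed signals averaged 4.10e+06 in dehydrated and 4.06e+06 in control pools (exact two-sided permutation p = 0.0794). In bulk tissue fewer cells of a type and less RNA per cell cannot be told apart, which holds for every value that follows.

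Signals are linear, scaled by the authors to a common level per array, and were compared as log2(signal + 3.72). A probe set was tested when its mean over the 10 arrays was 24.1 or more, and it is said to have risen or fallen when the Benjamini-Hochberg adjusted p of limma, taken over all 18629 tested probe sets, was under 0.05. A signal is given with its SD (n = 5) and a log2 difference with the standard error from limma. The 10 genes were chosen by their function with results of this same comparison known, and Apod in particular was selected on its lower signal in dehydrated pools, so their differences are a description and support nothing further. Of the 15 member probe sets that were tested, 1 fell, 0 rose and 14 did not pass. Over all tested probe sets 0.58% were called, 0.183% as lower and 0.397% as higher in dehydrated pools, and 2 of the 15 members had a p under 0.05 before adjustment against 12.7% of all. Those 2 were Apod and the dimmer probe set of Lrp1. The members' median log2 difference was -0.03, with 7 above and 8 below 0, beside a median of -0.00477 over all tested probe sets.

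Apolipoprotein D was the member that fell. Apod carries arachidonic acid, progesterone and other small hydrophobic molecules. Its signals in dehydrated pools 1 to 5 were 252.2, 265.3, 220.2, 233.1 and 276.6, and in control pools 1 to 5 they were 356.2, 362.4, 322.9, 333.1 and 393.3. Every dehydrated pool lay below every control pool, with a gap between 276.6 and 322.9. Groups that did not overlap were found for 3.36% of all tested probe sets, and among the 15 tested members for Apod alone. The means were 249.5 ± 23.0 in dehydrated and 353.6 ± 27.5 in control pools. The log2 difference was -0.50 ± 0.08 with a 95% interval from -0.66 to -0.33, which is 1.41-fold lower. Leaving out single arrays kept the difference between -0.54 and -0.46, and without control replicate 5 it was -0.46. The array carries 1 probe set for this gene, so no second probe set bears on it.

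**Figure D1:**
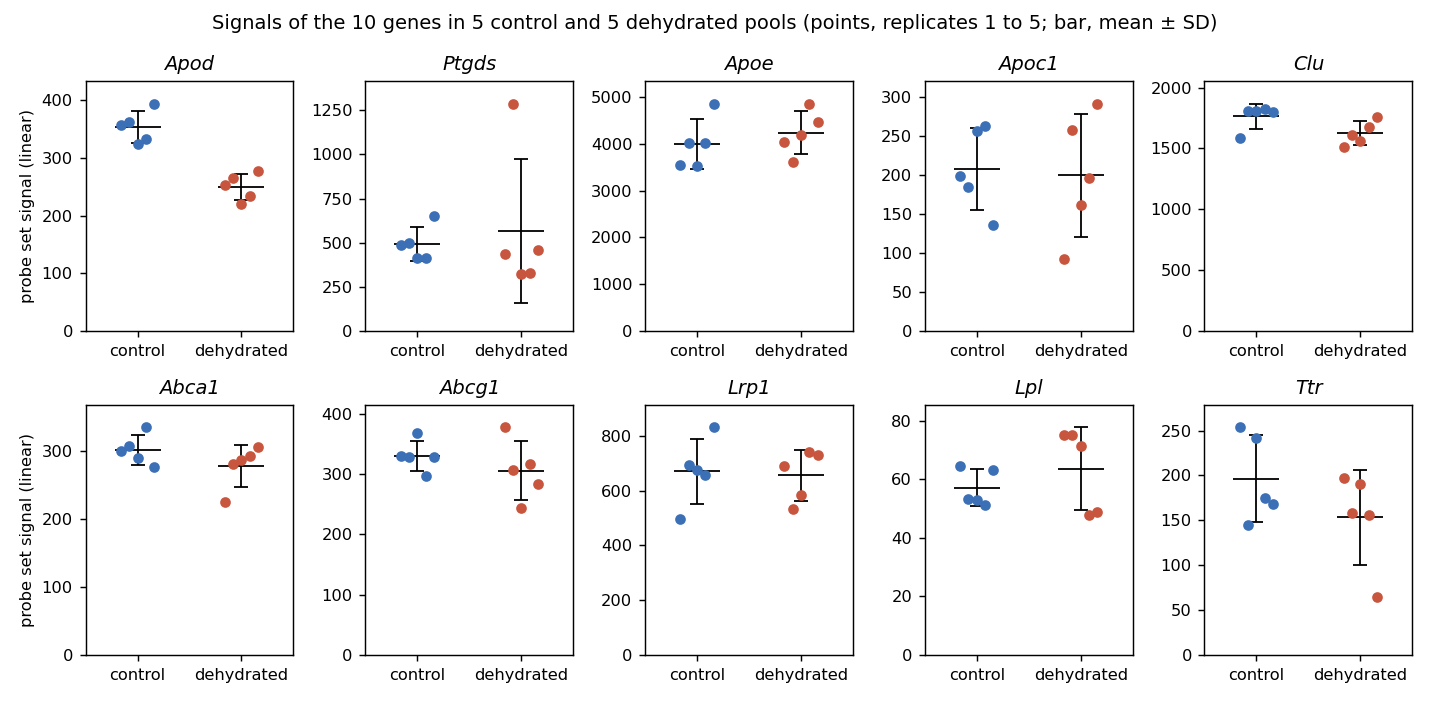
Linear signal of the probe set with the highest mean for each of the 10 genes, in 5 control pools (blue) and 5 dehydrated pools (red), as points in the order of replicates 1 to 5 with the mean ± SD as bars. The panel of Apod is the only one in which the groups do not overlap, and in the panel of Ptgds dehydrated replicate 2 stands at 1285.5 above all other pools.

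Of 19 oligodendrocyte probe sets for 12 marker genes, 1 fell and 18 did not pass, beside 0.183% called lower over all tested probe sets. The differences of 17 were negative, those of Fa2h (0.07) and of 1 Mobp probe set (0.02) were positive, and the median was -0.28. Before adjustment 11 of the 19 had a limma p under 0.05, against 12.7% of all tested probe sets. The groups did not overlap for 3 of the 19, against 3.36% of all. The one that fell was of Ermn, a cytoskeletal protein of myelinating cells, at -0.63 ± 0.12 (limma adjusted p = 0.0255). That call was lost without dehydrated replicate 3 or 4 or control replicate 2 (limma adjusted p = 0.0549, 0.0650 and 0.0792), without the filter (0.0640) and without the variance trend (0.0942), and the dimmer Ermn probe set was at -0.30 (0.397). The tight junction gene Cldn11 had 1109 ± 73.8 in dehydrated and 1352 ± 121 in control pools, with a limma adjusted p of 0.0721, and a dim second probe set at -0.24 (0.732). The brightest probe set of the myelin gene Mobp had a difference of -0.23 and its others -0.15 and 0.02 (limma adjusted p = 0.117, 0.700 and 0.971). The summed signal of the 19 probe sets ran from 7870 to 8345 in dehydrated and from 8496 to 10545 in control pools, so the sums did not overlap either. Among the other marker and pathway lists that was so only for the lipoprotein receptors, whose sum is given below. No myelin gene of the list was at 0, and Gjb1, the 1 marker under the filter, lay between 2.9 and 16.3. The part of these markers in the difference in Apod was not tested.

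Within the groups Apod also varied with an oligodendrocyte gene. After the group means were taken off, the log2 level of Cldn11 had a Pearson r of 0.94 with that of Apod over the 10 arrays, the 4th highest of all tested genes with a symbol, and r was 0.92 without the 2 arrays where Apod lay farthest from its median. The 3 genes above it were Plxnb1, a semaphorin receptor (r = 0.94), the zinc finger gene Zfp143 (r = 0.94) and Tmem129, and Aebp2 came next (r = 0.93). These ranks are over tested probe sets with 1 symbol on 10 arrays and describe the arrays only. Against the summed signal of the whole oligodendrocyte list, Apod had r = 0.63 and a Spearman rho of 0.64 (exact permutation p = 0.0302 and 0.0561, adjusted p = 0.228 over 90 relations of members with marker lists), and r = 0.58 without the 2 farthest arrays.

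**Figure D2:**
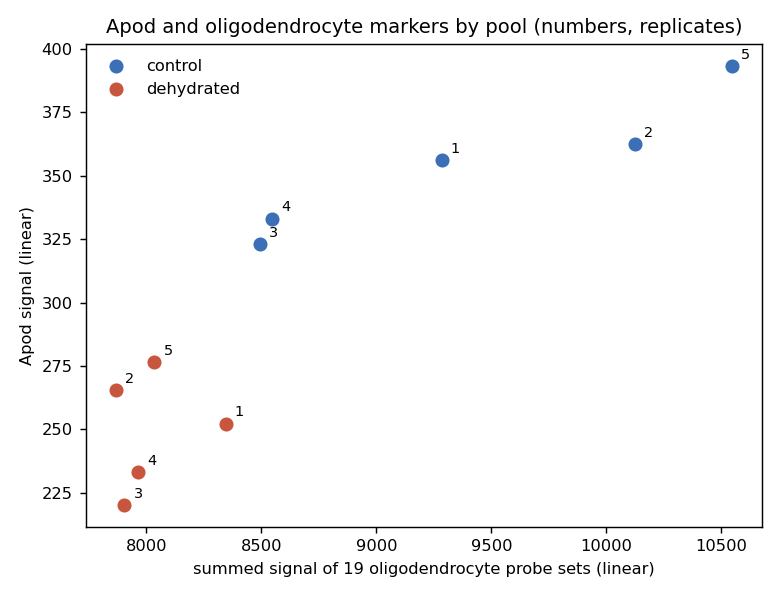
Linear Apod signal (vertical axis, not starting at 0) against the summed linear signal of 19 oligodendrocyte probe sets (horizontal axis, not starting at 0) for 5 control pools (blue) and 5 dehydrated pools (red), numbered by replicate. The dehydrated pools lie below and to the left of the control pools, at sums of 7870 to 8345 against 8496 to 10545.

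Ptgds, the other lipocalin, makes prostaglandin D2 and binds retinoids and thyroid hormone. Its signals were 439.2, 1285.5, 325.0, 330.6 and 456.5 in dehydrated pools 1 to 5 and 487.1, 497.1, 411.9, 415.6 and 653.3 in control pools 1 to 5. Dehydrated replicate 2 was the highest of all 10 pools, and the other 4 dehydrated pools lay at or below 456.5. The log2 difference was 0.01 ± 0.27 (limma adjusted p = 0.993), with a 95% interval from -0.56 to 0.58. Without dehydrated replicate 2 it turned to -0.34 (limma adjusted p = 0.263). In that pool the summed signal of 7 probe sets of ependyma and tanycytes was 2140.1, the highest of the 10 pools, where the others ran from 1438.9 to 1952.1. The blood sum of 568.5 was the highest among dehydrated pools, with controls at 562.3 to 768.6, while the sum of 14 probe sets of meninges and pericytes was 731.9, between the 710.8 and 941.2 of other dehydrated pools. The oligodendrocyte sum was 7869.6, the lowest of the 10 pools, and the neuron sum was 11448.2, the lowest among dehydrated pools. Over all 10 arrays Ptgds had r = 0.51 and rho = 0.33 with the ependymal sum (exact permutation p = 0.186 and 0.372, adjusted p = 0.728 and 0.811 over 90 relations), and r = 0.12 without the 2 farthest arrays. The part of these markers in the Ptgds signal was not tested.

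Apod and Ptgds tended to vary together from pool to pool within the groups, a relation that did not pass after adjustment over all 10 arrays. Over the 10 arrays with group means removed, r was 0.64 and rho 0.87 (exact permutation p = 0.0490 and 0.00229), and adjusted over the 45 pairs of members p was 0.378 and 0.103. Without the 2 arrays where Apod lay farthest from its median r was 0.56. When dehydrated replicate 2 alone was left out, r was 0.95 and the adjusted p 0.0156 (exact permutation), the smallest that the arrangements of 9 arrays allow over 45 pairs when a single pair reaches it. Leaving out dehydrated replicate 5 gave r = 0.78 with the same adjusted p, but rho = 0.88 did not pass (exact permutation, adjusted p = 0.172). The high Ptgds pool, dehydrated replicate 2, was still among those 9 arrays. Both genes were highest among controls in replicate 5 and lowest there in replicate 3.

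Apoe, the main lipoprotein component of the brain and a product of astrocytes, had the signals 4038.2, 3618.2, 4188.2, 4851.0 and 4469.6 in dehydrated pools and 3555.1, 4023.4, 3531.8, 4004.0 and 4838.0 in control pools. The groups overlapped over most of their range. The log2 difference was 0.09 ± 0.09 (limma adjusted p = 0.707), with a 95% interval from -0.09 to 0.27, and it turned to -0.08 under quantile normalization. The highest signal of any probe set was 4558 to 6284 per array, so Apoe was read close to the top of each array's range. A second Apoe probe set lay between 0.4 and 4.4 on every array, under the filter, and gave no usable level.

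Apoc1, a small apolipoprotein that inhibits lipoprotein lipase and is the genomic neighbour of Apoe in the RefSeq annotation, varied widely within both groups. Its signals were 92.6, 258.5, 161.4, 196.6 and 291.7 in dehydrated and 198.6, 184.9, 256.2, 263.5 and 136.8 in control pools. Dehydrated replicates 1 and 5 were the lowest and the highest of all 10 pools. The log2 difference of -0.12 ± 0.24 (limma adjusted p = 0.874) had a 95% interval from -0.63 to 0.39 and turned to 0.13 without dehydrated replicate 1. Microglia and macrophages, where Apoc1 is also made, had 11 tested marker probe sets with 8 negative and a median of -0.08. Aif1 had the smallest p of that list, with a difference of -0.42 on its brighter and -0.11 on its dimmer probe set (limma adjusted p = 0.0880 and 0.894). The brighter one passed with array weights, without control replicate 5 and without dehydrated replicate 2 (limma adjusted p = 0.0224, 0.0250 and 0.0486). Before adjustment 2 of the 11 had a limma p under 0.05, against 12.7% of all tested probe sets. The other of these, the bright probe set of Ctss, was positive, at 0.16 (limma adjusted p = 0.373). The neighbouring genes Apoe and Apoc1 had r = -0.25 and rho = -0.19 across pools (exact permutation p = 0.500 and 0.633, adjusted p = 0.828 and 0.890 over 45 pairs), and r = 0.20 without the 2 farthest arrays.

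Clu, also called apolipoprotein J, is a secreted chaperone made by astrocytes. Its brighter probe set had 1509.2, 1612.5, 1563.8, 1676.2 and 1760.7 in dehydrated and 1583.5, 1809.8, 1807.8, 1822.2 and 1802.3 in control pools. Of the 5 control pools 4 lay above all dehydrated pools, and control replicate 1 lay among them. The log2 difference was -0.12 ± 0.06 (limma adjusted p = 0.397), and -0.16 without control replicate 1 (limma adjusted p = 0.303). The dimmer probe set of Clu had 28.4 ± 5.61 and 30.2 ± 13.5 and a difference of 0.01 ± 0.25, with a 95% interval from -0.53 to 0.54, whose sign changed with the scaling. The 17 probe sets of astrocyte markers had 10 positive and 7 negative differences with a median of 0.03. Before adjustment 4 of them had a limma p under 0.05, against 12.7% of all tested probe sets. Gfap, the intermediate filament of astrocytes, was at -0.38 and the brightest Aqp4 probe set at -0.16 (limma adjusted p = 0.0553 and 0.249). Gjb6 and Aldoc were positive, at 0.22 and 0.13 (limma adjusted p = 0.304 and 0.389). Gfap passed with array weights, quantile normalization or the 60th percentile filter (limma adjusted p = 0.0289, 0.0399 and 0.0496). It also passed without dehydrated replicate 2 or 5 (0.0192 and 0.0425).

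The cholesterol exporters did not pass. Abca1, which hands cholesterol to apolipoproteins, had 278.8 ± 31.0 in dehydrated and 302.0 ± 21.8 in control pools on its brightest probe set, a log2 difference of -0.12 ± 0.08 (limma adjusted p = 0.583) with a 95% interval from -0.30 to 0.06. Its other tested probe sets gave -0.10 ± 0.13 and 0.14 ± 0.12, so they disagreed in sign, and the 4th lay between 4.2 and 8.8 under the filter. Abcg1, which loads cholesterol onto particles already formed, had 305.7 ± 48.9 and 330.5 ± 25.4, a difference of -0.12 ± 0.10 (limma adjusted p = 0.627) with a 95% interval from -0.33 to 0.08. A dimmer Abcg1 probe set was at 0.07 ± 0.11 and the dimmest, under the filter, ranged from 5.1 to 34.8. Across pools the brightest probe sets of Abca1 and Abcg1 had r = -0.74 and rho = -0.61, which did not pass (exact permutation p = 0.0503 and 0.0762, adjusted p = 0.378 and 0.381 over 45 pairs). Without the 2 farthest arrays r was -0.55.

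Lrp1, a large endocytic receptor for Apoe and many other ligands, gave different readings from its 2 probe sets. The brighter had 655.7 ± 92.0 in dehydrated and 670.9 ± 118 in control pools, a log2 difference of -0.03 ± 0.12 (limma adjusted p = 0.947) with a 95% interval from -0.27 to 0.22. The dimmer had 31.4, 44.3, 46.2, 37.4 and 22.3 in dehydrated and 1.2, 24.5, 35.5, 19.8 and 20.8 in control pools. Control replicate 1 was the lowest of these by far, and the remaining pools overlapped. This dimmer probe set, with a mean signal of 28.3, passed the filter of 24.1 only through the dehydrated pools. Its means were 36.3 in dehydrated and 20.4 in control pools. Its difference of 0.97 ± 0.41 (limma adjusted p = 0.336) was 0.46 without control replicate 1 and 1.21 at a pseudocount of 1. Between pools the brighter probe set moved with Apoe, with r = 0.81 and rho = 0.81 (exact permutation p = 0.0152 and 0.0135, adjusted p = 0.171 and 0.152 over 45 pairs), and r = 0.65 without the 2 farthest arrays.

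Lpl, the lipase that frees fatty acids from triglyceride-rich particles, had 75.1, 75.2, 71.5, 48.0 and 48.9 in dehydrated and 64.7, 53.3, 53.0, 51.4 and 63.3 in control pools. Dehydrated replicates 1 to 3 were above all controls and replicates 4 and 5 below them. Dehydrated minus control was 0.13 ± 0.14 in log2 (limma adjusted p = 0.754), with a 95% interval from -0.18 to 0.43. Between pools Lpl ran against Clu (r = -0.76, rho = -0.84, exact permutation p = 0.00806 and 0.00618, adjusted p = 0.171 and 0.117 over 45 pairs), and r was -0.80 without the 2 farthest arrays.

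Ttr, the carrier of thyroxine and of the retinol-binding protein, is made in bulk by the choroid plexus. Its signals were 197.1, 158.4, 190.2, 156.3 and 64.5 in dehydrated and 253.5, 145.0, 241.6, 174.5 and 168.0 in control pools. Dehydrated replicate 5 was the lowest, and 4 of 5 dehydrated pools lay within the range of the controls. Ttr differed by -0.41 ± 0.24 in log2 (limma adjusted p = 0.479), with a 95% interval from -0.91 to 0.09, and it was -0.13 without dehydrated replicate 5. Of the 12 choroid plexus markers on the array, 7 were under the filter and between 0.5 and 31.3 on every array, Kl, Kcnj13, Otx2 and Cldn2 among them. The 6 tested probe sets of the other 5 had a median difference of 0.02, 4 of them positive, and their sums ran from 873.3 to 975.8 in dehydrated and from 879.7 to 1048 in control pools. Enpp2, which oligodendrocytes also express, had the smallest p of that list, at -0.25 (limma adjusted p = 0.214). Enpp2 alone read 543.6 to 815.5 per array and so made up most of that sum. Against the sum Ttr had r = -0.33 and rho = -0.32 across pools (exact permutation p = 0.270 and 0.377, adjusted p = 0.728 and 0.811 over 90 relations), and r = 0.34 without the 2 farthest arrays. Ttr ran against Clu, with r = -0.76 and rho = -0.81 (exact permutation p = 0.00194 and 0.00778, adjusted p = 0.0875 and 0.117 over 45 pairs), and r was -0.82 without the 2 farthest arrays.

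**Figure D3:**
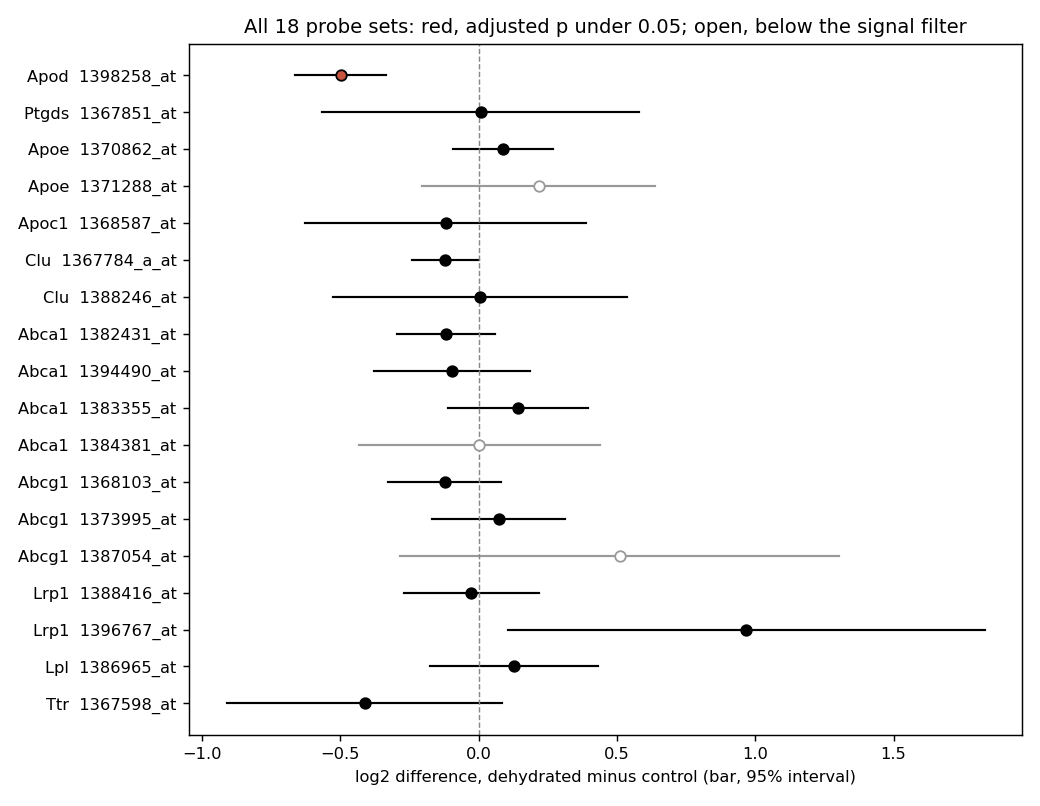
Log2 difference of dehydrated minus control pools for all 18 member probe sets, with the 95% interval of the limma fit as a bar. Apod is marked in red as the only one with an adjusted p under 0.05, at -0.50, and the 3 open points are probe sets under the signal filter, whose values come from the fit without it.

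The remaining marker lists gave the following. The 7 tested neuron markers were all positive with a median log2 difference of 0.35, and 4 had an unadjusted limma p under 0.05. Of the 7, 1 passed, Pdyn, which encodes the opioid precursor prodynorphin, at a log2 difference of 0.81. Over all tested probe sets 0.397% were called higher and 0.183% lower, and 12.7% had an unadjusted p under 0.05. Both blood probe sets were negative and 1 fell, that of Hbb, a hemoglobin chain, at -0.67 ± 0.13 (limma adjusted p = 0.0305). The Hbb call was lost without the filter (0.0849), without the variance trend (0.126), and without dehydrated replicate 1, 3 or 4 or control replicate 1, 2 or 4 (limma adjusted p from 0.0536 to 0.0842). The 14 probe sets of meninges and pericytes had 8 negative values and a median of -0.12, and the 7 of ependyma and tanycytes had 4 positive values and a median of 0.04. None (0) of either list passed in limma, with 5 and 1 at an unadjusted p under 0.05, beside the 12.7% of all tested probe sets.

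Of the 45 pairs of members, none (0) passed after adjustment by the exact permutation test, with 5 at an unadjusted p under 0.05 by Pearson's r, and 20 of the 45 correlations were positive. The highest r was that of Apoc1 with Abca1, at 0.82 (rho = 0.62, exact permutation p = 0.0146 and 0.0674, adjusted p = 0.171 and 0.379), which dropped to 0.50 without the 2 farthest arrays. Of 90 relations between the members and the summed signals of 9 marker lists none (0) passed either, with 14 at an unadjusted p under 0.05. The smallest p by Pearson's r was that of Clu with the astrocyte list, with r = 0.88 and rho = 0.87 (exact permutation p = 0.00257 and 0.00882, adjusted p = 0.102 and 0.331), and r = 0.84 without the 2 farthest arrays. Apoe had r = 0.80 and Lrp1 r = 0.80 with the same list, and Ttr r = -0.80 (adjusted p = 0.116, 0.116 and 0.102, exact permutation). The smallest p by Spearman's rho was that of Ttr with this list, at rho = -0.87 (exact permutation p = 0.00111, adjusted p = 0.10). Apoc1 ran against the list of meninges and pericytes, with r = -0.87 and rho = -0.70 (exact permutation p = 0.00347 and 0.0408, adjusted p = 0.102 and 0.361).

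**Figure D4:**
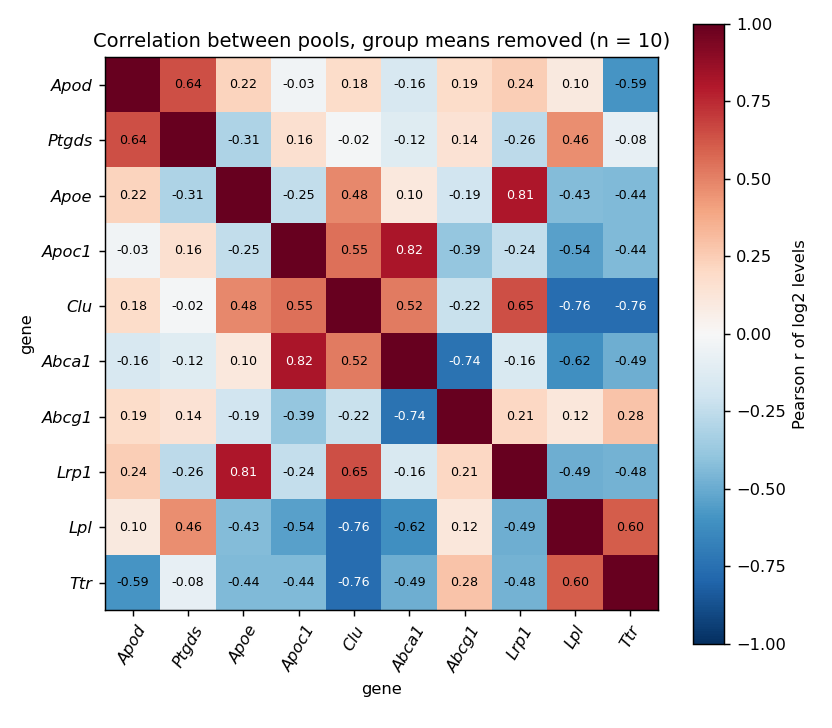
Pearson correlation of log2 levels between the 10 genes over 10 arrays after the group means were removed, red for positive and blue for negative values. The strongest cells are Apoc1 with Abca1 at 0.82, Apoe with Lrp1 at 0.81 and Clu with Ttr and with Lpl, both at -0.76.

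The wider lipid pathway was followed through 5 lists of 118 genes, of which 105 were on the array and 73 were tested, with 102 probe sets. Of these 102 probe sets 2 rose and 0 fell, beside 0.58% called over all tested probe sets, and their median log2 difference was 0.02. Most apolipoproteins of plasma particles were not measurable here: 13 of the 22 genes on the array among other apolipoproteins and lipid-binding proteins were under the filter, including Apoa1, Apob, Apoc2 and Apoc3, and none of them went above 44.3 on any array. Of the 10 tested probe sets in that list none (0) passed in limma. Before adjustment 4 had a limma p under 0.05, against 12.7% of all tested probe sets. Its median was 0.11 with 8 positive, and its smallest p was that of the fatty acid carrier Fabp3, at 0.17 ± 0.08 (limma adjusted p = 0.353). The sterol carrier Scp2 was at 0.12 on 1 probe set and at -0.02 on the other (limma adjusted p = 0.367 and 0.908), and the retinoic acid carrier Crabp1 at 0.42 (0.368).

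Among lipid transporters and lipases, Abcg2 rose. Abcg2 is an efflux pump of the blood-brain barrier that expels drugs, sterols and porphyrins. Its signals were 67.9, 73.3, 76.2, 71.8 and 88.6 in dehydrated and 33.8, 47.6, 32.2, 43.4 and 51.5 in control pools, so that every dehydrated pool lay above every control pool. The log2 difference was 0.82 ± 0.14 (limma adjusted p = 0.00913), and it lay between 0.74 and 0.89 with each array left out. The 13 probe sets of endothelial markers had 11 positive differences with a median of 0.12, and none (0) passed in limma. Before adjustment 2 had a limma p under 0.05, against 12.7% of all tested probe sets. The endothelial transporter Slco1a4 was at 0.28 on its brighter and 0.08 on its dimmer probe set (limma adjusted p = 0.0919 and 0.869). The pump Abcb1a was at 0.36 on its brighter and -0.01 on its dimmer one (limma adjusted p = 0.310 and 0.992). The summed endothelial signal overlapped between the groups, at 1707 to 1913 in dehydrated and 1420 to 1918 in control pools. The part of these markers in the rise of Abcg2 was not tested.

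In the same list Angptl4, a secreted inhibitor of Lpl, had 109.2 ± 12.2 in dehydrated and 76.4 ± 15.6 in control pools, a log2 difference of 0.51 ± 0.13 that did not pass (limma adjusted p = 0.0845). It passed without control replicate 5 (limma adjusted p = 0.0178) and with array weights (0.0223). The lipid transporter Abca7 was at 0.40 ± 0.12 (limma adjusted p = 0.173, and 0.0318 without control replicate 5). Of the 30 tested probe sets of this list 29 did not pass, 20 were positive and the median was 0.05.

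**Figure D5:**
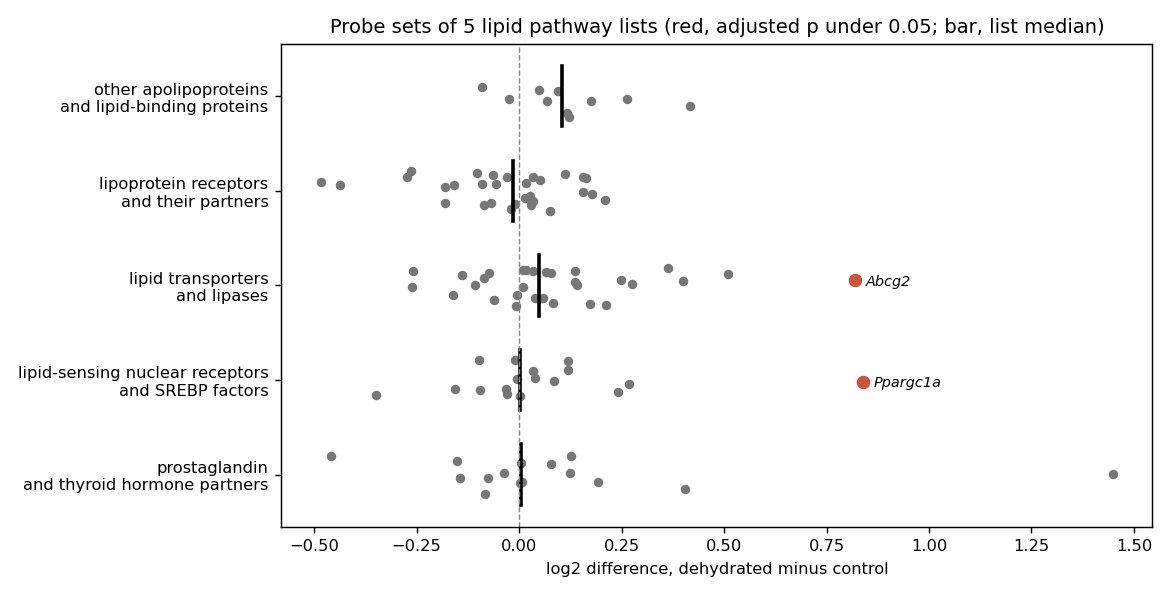
Log2 difference of dehydrated minus control pools for the tested probe sets of 5 lipid pathway lists, each point a probe set and each black bar the median of its list, with vertical scatter added only to separate points. Abcg2 and Ppargc1a, in red, are the 2 of 102 probe sets with an adjusted p under 0.05, and the grey point at 1.45 is Ptges.

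Among the lipid-sensing nuclear receptors and sterol-regulated factors, 1 of 3 probe sets of Ppargc1a rose. Ppargc1a is a coactivator of nuclear receptors that governs mitochondrial genes. That probe set read 43.7, 50.5, 55.4, 48.0 and 60.1 in dehydrated and 23.1, 30.7, 31.7, 35.1 and 17.9 in control pools, without overlap, and its log2 difference was 0.84 ± 0.17 (limma adjusted p = 0.0305). The call was lost when any of dehydrated replicates 3 (limma adjusted p = 0.0961), 4 (0.0650) and 5 (0.0813) or control replicates 1 (0.0729) and 2 (0.0507) was left out. The 2 brighter probe sets of the gene were at -0.09 ± 0.09 and -0.03 ± 0.11 (limma adjusted p = 0.692 and 0.930), so the rise was that of a single, dim probe set. Srebf2, which drives cholesterol synthesis, was at -0.35 ± 0.10 without passing (limma adjusted p = 0.131), and Insig2, which holds it back, at 0.27 ± 0.12 on its dimmer and 0.04 on its brighter probe set (limma adjusted p = 0.381 and 0.894). The oxysterol receptor Nr1h3, a known activator of Abca1, Abcg1 and Apoe transcription, lay between 3.2 and 19.2, under the filter. The other oxysterol receptor, Nr1h2, was above the filter and had a log2 difference of -0.10 ± 0.13 (limma adjusted p = 0.786).

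No receptor of the lipoprotein family or partner passed in limma (0 of 30 probe sets), and the list's median was -0.01. The summed signal of the 30 ran from 4421 to 4583 in dehydrated and from 4613 to 4840 in control pools, without overlap. Before adjustment 3 of the 30 had a limma p under 0.05, against 12.7% of all tested probe sets. Those 3 all belonged to Sorl1, a sorting receptor that binds Apoe and steers cargo between the Golgi and endosomes. Its probe set with the smallest p read 242.6, 243.9, 262.1, 264.5 and 308.0 in dehydrated and 303.3, 350.4, 428.5, 404.3 and 317.5 in control pools, and only dehydrated replicate 5 reached into the control range. Its log2 difference was -0.44 ± 0.10 (limma adjusted p = 0.0528). The others were at -0.48 ± 0.11 (0.0540) and -0.27 ± 0.08 (limma adjusted p = 0.172), and 4 further probe sets lay from -0.26 to -0.01 (limma adjusted p from 0.487 to 0.981). The first passed without control replicate 1, control replicate 5 or dehydrated replicate 5 (limma adjusted p = 0.0403, 0.0290 and 0.0425), the second without control replicate 1 (0.0231). Of the further 4, the brightest went from -0.18 to -0.30 and passed without control replicate 5 (limma adjusted p = 0.0354). The scavenger receptor Scarb1 was at 0.21 ± 0.10 and Lrp4 at -0.16 ± 0.09 (limma adjusted p = 0.394 and 0.487).

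Partners of Ptgds and Ttr in prostaglandin and thyroid hormone metabolism did not pass in limma (0 of 15 probe sets). Before adjustment 2 had a limma p under 0.05, against 12.7% of all tested probe sets. Ptges, the enzyme that makes prostaglandin E2 from the same precursor that Ptgds uses, had 43.2, 45.9, 27.3, 44.5 and 36.7 in dehydrated and 8.2, 18.1, 1.6, 22.6 and 21.8 in control pools. Its mean signal of 27.0 passed the filter only through the dehydrated pools (mean 39.5), while every control pool lay under the cut of 24.1. The groups did not overlap, and the difference of 1.45 ± 0.35 missed the threshold (limma adjusted p = 0.0768). Its size moved with the pseudocount, to 0.94 at 4 times the pseudocount used (limma adjusted p = 0.0396), and it also passed without control replicate 5 (limma adjusted p = 0.0413). The dimmest probe set of Thrsp, a thyroid hormone responsive gene of lipid synthesis, was at -0.46 ± 0.17, and its brighter ones were at 0.12 and -0.08 (limma adjusted p = 0.273, 0.812 and 0.817). That dimmest probe set, with a mean signal of 25.1, passed the filter only through the control pools (mean 29.7, against 20.5 in dehydrated pools). The thyroid hormone receptor Thrb was at 0.41 ± 0.20 on 1 probe set, at 0.08 on a dimmer one and at 0.01 on the brightest (limma adjusted p = 0.413, 0.883 and 0.983). The cyclooxygenase Ptgs2 and the deiodinase Dio2 lay under the filter, at no more than 24.1 on any array.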

How the data were processed

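The authors deposited linear signal intensities for every probe set on each array. GCOS 1.2 is named in the submitters' processing notes, and which of its signal algorithms was run is not stated there. All arrays had the same mean, 100.03 to 2 decimals, once 2% of the values at each end were trimmed, which is a scaling done before deposit. Very bright probe sets can saturate and very dim ones hold mostly background. Groups came from the sample labels, and replicates were numbered in accession order, which pairs nothing. The labels name separate groups of animals for each pool. No batch is named. The array titles carry numbers that form separate runs for the dehydrated and the control pools. The number of control replicate 5 lies outside the run of the other controls. No label says what these numbers stand for, so array batch and group cannot be told apart.

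Of 31099 probe sets, 57 controls were left out. The platform annotation gave 1 symbol for 20826, several for 436 and none for 9780. Gene lists were matched by that symbol or by the current one of RefSeq (GRCr8 table, names only). The pseudocount of 3.72 was 0.1 of the median array median. Probe sets at or above the 40th percentile of mean signal were tested with lmFit and eBayes (with trend) of limma 3.58.1 in R 4.3.3, which was tested on simulated arrays. Correlations used log2 levels with group means removed and exact two-sided permutation within groups (14400 arrangements). The members and lists were chosen with earlier results of these data known. Named outside the members were, from each pathway list, the genes that passed and otherwise the 3 with the smallest p, from each marker list up to 3 with the smallest p, and the 5 genes most correlated with Apod, Ttr and Ptgds. Genes under the filter were named after their values were seen, and so was Nr1h2, given beside Nr1h3. Alternatives were median centring, quantile normalization, pseudocounts of 14.88 and 1, no filter, a 60th percentile filter, no variance trend, a robust fit, array weights and each array left out. The relations of members with marker lists were added after seeing the data.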

Additional observations from a re-analysis of the deposited data

Results flagged for a closer look

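Single pools lay far from the others of their group, by Dixon's ratio above 0.71, in 8 of 134 groups of 5 pools that were checked over 67 probe sets, and chance gives about 1 in 20. Among the members, Ptgds was 1285.5 in dehydrated replicate 2 against 325.0 to 456.5 in the other dehydrated pools. Clu was 1583.5 in control replicate 1 against 1802.3 to 1822.2 in the other controls, and 1 Abca1 probe set was 120.8 in dehydrated replicate 5 against 91.3 to 96.1. The dim Apoe probe set was 4.4 in dehydrated replicate 1 against 1.0 to 1.9. Outside the members, 1 Sorl1 probe set was 449.8 in control replicate 5 against 664.6 to 717.8, and another 234.4 in control replicate 2 against 202.4 to 209.7. The microglial gene Aif1 was 87.6 in control replicate 5 against 112.4 to 113.5, and the vessel and matrix gene Mgp 314.7 in dehydrated replicate 1 against 190.7 to 222.2.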

How the results depend on the processing

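Apod was called lower in all 19 alternatives, and 1 member probe set was called in each. Abcg2 was called in the 18 in which it was tested, and the 60th percentile filter left it out. Of all probe sets 108 were called, 64 without the filter, 45 without the variance trend, 201 with array weights, and 46 to 148 with an array left out. Pathway probe sets called were 2, and 4 at the larger pseudocount, 1 without the filter, 1 without the trend, 7 with array weights and 1 to 7 with an array left out. Marker probe sets called were 3, and 1 without the filter, 5 with the stricter filter, 1 without the trend, 8 with array weights and 1 to 6 with an array left out. Correlated member pairs were 0, and 0 to 1 with an array left out. Without control replicate 5 the counts were 148, 7 and 6, and without dehydrated replicate 3 they were 46, 1 and 1. The cause was not tested.

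Signs of differences near 0 turned. Apoe was -0.078 under quantile normalization. The dim Clu probe set was -0.013 with median centring, -0.030 with quantile normalization, -0.014 at the larger pseudocount, -0.18 with array weights, and -0.20 to 0.16 with an array left out. Ptgds was -0.011 with median centring and -0.34 to 0.15 with an array left out. The brighter Lrp1 probe set was 0.022 with array weights and -0.13 to 0.055 with an array left out. With an array left out, Apoc1 lay between -0.28 and 0.13 and an Abca1 probe set between -0.20 and 0.0059. A Ppargc1a probe set was 0.0018 with array weights and -0.097 to 0.020 with an array left out, and a Sorl1 probe set 0.0090 with quantile normalization and -0.065 to 0.091. No paired analysis was possible because the labels give no number that ties a dehydrated to a control pool. With 5 arrays a group, their number limits the precision. Of the tested members the dim Lrp1 probe set, near the filter, had the widest interval, with a standard error of 0.41. Ptgds, Apoc1 and Ttr, well above the filter, also had wide intervals, with standard errors of 0.27, 0.24 and 0.24.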

Other observations

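Ttr and Ptgds had no oligodendrocyte or choroid plexus marker of the lists among the 5 genes most like them across pools. Only tested probe sets were ranked, so the 7 choroid plexus markers under the filter could not appear, and 5 places leave most genes out. With group means removed, Ttr had r = 0.91 with Tbxas1, the thromboxane synthase, and r was 0.86 without the 2 arrays where Ttr lay farthest from its median. Its r was 0.91 with Mfap3, Gpt2 and Tor1aip2 and 0.90 with Usp6nl, and without those 2 arrays it was 0.54, 0.69, 0.55 and 0.57. Ptgds had r = 0.96 with Efr3a, 0.95 with Zfp688, 0.93 with Ppp2r5c, 0.92 with Samd4b and 0.90 with Mllt1, and without the 2 farthest arrays 0.80, 0.58, 0.56, 0.65 and 0.66. Lcn2, another lipocalin, lay under the filter at 13.4 to 44.3, with means of 32.7 in dehydrated and 15.4 in control pools. These are descriptions of 10 arrays and were not tested.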
